A study of Mus musculus with 12 samples.

Results

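The regions described here are 1247 H3K27ac peaks of KMT2D WT mouse melanoma cells that overlapped H3K79me2 chromatin, wholly or in part, but carried no called H3K4me1 or H3K4me3. They were selected on WT values alone, as autosomal WT H3K27ac peaks that overlapped no WT H3K4me1 peak and no WT H3K4me3 peak by even 1 bp and overlapped at least 1 WT H3K79me2 peak. They made up 5.04% of the 24759 autosomal WT H3K27ac peaks and 14.3% of the 8749 that lacked H3K4me1 and H3K4me3. Because the rule used the WT lists, what follows about WT marks is description, and the mutant lists, which the rule did not use, carry the comparisons.

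The cells were isolated from ear tumours of iBIP mice, a melanoma model on a mixed FVB and B6 background. Mutant cells came from iBIP mice with both KMT2D alleles floxed (KMT2DL/L), and WT cells came from iBIP mice with intact alleles (KMT2D+/+). Both genotypes carried the PTENL/L and INK/ARFL/L alleles, the inducible oncogene TetO-BRAFV600E with its driver Rosa26-rtta, and Tyr-CreERT2. Both received doxycycline, and both had 4-OHT at 1 uM put on the ears. Tyr-CreERT2 is a tamoxifen-activated recombinase driven from a melanocyte promoter, so deletion starts in that lineage, and the cells were then kept in DMEM, outside the animal. Whether KMT2D was deleted in the mutant cells cannot be read from peak lists and was not checked. Chromatin immunoprecipitation and sequencing (ChIP-seq) gave 1 library per genotype for each of 5 marks, so a difference between genotypes cannot be told apart from a difference between 2 cell isolates or 2 libraries.

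Histone marks divide the genome by function. H3K27ac sits at active enhancers and promoters, H3K4me1 is typical of enhancers, and H3K4me3 is typical of active promoters. KMT2D is one of the main methyltransferases that place H3K4me1 at enhancers. H3K79me2 is placed by DOT1L and spreads over the first part of transcribed genes, so an H3K27ac peak inside it usually lies in a transcribed gene body. H3K27me3, the Polycomb mark, covers silenced genes. An H3K27ac peak with neither form of H3K4 methylation is therefore unlike a textbook enhancer or promoter, and the question here is what marks such peaks carried in the KMT2D mutant.

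The mutant lists held 22343 H3K27ac, 5358 H3K4me1, 13691 H3K4me3, 22103 H3K79me2 and 14712 H3K27me3 peaks, against 25060, 15981, 14723, 26353 and 13277 in the WT lists, in the same order of marks. The H3K4me1 list was thus much the shorter in the mutant, which bears on every H3K4me1 share below. A peak list holds no read counts, so depth is unknown, and a missing peak means that none passed the authors' threshold, not that the mark was absent. All intervals in brackets are exact (Clopper-Pearson) 95% binomial intervals unless said otherwise. They cover counting error only, and no test between genotypes was possible. Intervals of a difference at like score come from the binomial variance in each score group. No gene annotation or genome of the files' build, mm9, was used here, so regions are given by mm9 coordinates without gene names, and the melanocyte identity of the cells was not checked on marker genes.

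In WT cells the 1247 peaks were modest. Their MACS score, which reads as 10 times the −log10 of the peak caller's p-value, had a median of 168 and quartiles of 115 and 286, and ranged from 90.03, close to the lowest score in the list, to 3100. Their median width was 1150 bp, with extremes of 410 and 12412 bp. The closest groups for comparison were 7502 H3K27ac peaks that also lacked H3K4me1 and H3K4me3 but lay outside H3K79me2, with a median score of 180 and width of 1201 bp, and 1867 H3K4me1-marked peaks within H3K79me2, with a median score of 279 and width of 1789 bp. The peaks of interest were thus slightly weaker than those outside H3K79me2 and clearly weaker than their H3K4me1-marked neighbours in the same kind of chromatin.

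H3K79me2 lay over a median of 87.2% of the length of these peaks in WT cells. It covered 581 of them (46.6%) from end to end and 364 (29.2%) over less than 50% of their length. Peaks at the border of the rule overlapped H3K79me2 by 10, 15 and 20 bp, at chr11:98677831-98678725, chr7:94642079-94643582 and chr9:111045510-111046466, with scores of 149, 136 and 142. Those that missed it most narrowly lay 3, 6 and 19 bp away, at chr19:57032471-57033483, chr15:102144879-102147259 and chr5:32015262-32017286, with scores of 122, 655 and 295. The peaks nearest to a WT H3K4me1 peak were 1, 4 and 10 bp from it, so absence of overlap did not always mean distance. The median distance to the nearest WT H3K4me1 peak was 4046 bp, against 17745 bp for peaks outside H3K79me2, and that to the nearest WT H3K4me3 peak was 10297 bp, against 26913 bp. Only 1 of the 1247 carried WT H3K27me3.

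The 1247 peaks were spread over 1082 WT H3K79me2 peaks, each of which is here called a block. A single peak lay in 929 blocks, 111 blocks held 2, 22 held 3, 15 held 4, 4 held 5 and 1 held 7, and 55 peaks touched more than 1 block. These blocks were wide, their median width being 3992 bp, where all 25869 autosomal WT H3K79me2 peaks had one of 1449 bp. Their median fold enrichment, as the authors deposited it, was 4.53 against 4.20. WT H3K4me3 overlapped 33.1% of them (30.3 to 36.0) and 31.4% of all blocks (30.8 to 31.9). WT H3K4me1 overlapped 34.8% of them (31.9 to 37.7), against 19.2% of all blocks (18.7 to 19.6). Another WT H3K27ac peak overlapped 46.1% of them (43.1 to 49.1), with no share over all blocks to set beside it. In 376 of these 1082 blocks, WT H3K4me1 thus lay beside the peaks rather than over them. The share of the 1247 peaks in such blocks was not counted. Wide blocks can hold more peaks of any kind, and that part of the difference was not tested.

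In the mutant, an H3K27ac peak overlapped 697 of the 1247 regions, 55.9% (53.1 to 58.7), where the share over all autosomal WT H3K27ac peaks was 76%. Mutant H3K79me2 overlapped 964, or 77.3% (74.9 to 79.6), against 38.1% of all H3K27ac peaks, most of which never lay in H3K79me2. Mutant H3K4me1 overlapped 91, or 7.30% (5.92 to 8.88), against 13.5% overall. That share depended on the setting. Over the same regions it was 14.0% with mutant peaks within 1000 bp counted and 4.09% with cover of at least 50% required. Other settings changed the class itself. With lists of equal number it became 1473 regions, with mutant H3K4me1 at 14.8%. The WT H3K4me1 list was cut there, so those regions can overlap WT H3K4me1 peaks of the full list. With a score of at least 200 and −log10 q of at least 5 the class was 741 regions, and the share 4.05%. Mutant H3K4me3 overlapped 59, or 4.73% (3.62 to 6.06), against 43.6% overall. Mutant H3K27me3 overlapped 5, or 0.401% (0.130 to 0.933), against 3.22% overall. At 1 bp of overlap, H3K79me2 was thus called in both genotypes at more of these regions than H3K27ac. The lists had unlike p thresholds, and 1 bp of overlap favours long domains. Over their summed length mutant H3K27ac covered 55.2% and mutant H3K79me2 55.8%, where WT H3K79me2 covered 65.0%. Few of the regions had called mutant H3K4me3 or H3K27me3, but the rule left out all peaks with WT H3K4me3. Those had mutant H3K4me3 at 94.4% and mutant H3K27me3 at 6.11%, which raises the overall shares.

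Set against the peaks outside H3K79me2, these regions had slightly less H3K27ac in the mutant, 55.9% against 59.1% (58.0 to 60.2). They had more H3K4me1, 7.30% against 3.07% (2.69 to 3.48), and more H3K4me3, 4.73% against 2.07%. H3K27me3 was at 0.401% against 0.946%. Set against H3K4me1-marked peaks within H3K79me2, they had much less H3K27ac, 55.9% against 82.5% (80.7 to 84.2), less H3K4me1, 7.30% against 43.3% (41.0 to 45.6), and less H3K79me2, 77.3% against 86.0% (84.4 to 87.6). H3K4me3 was alike, at 4.73% and 4.61%. The H3K4me1-marked peaks were chosen for WT H3K4me1 and these regions for lacking it. Their gap in mutant H3K4me1 is thus largely set by the rule, and nothing is read from it.

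**Figure D1:**
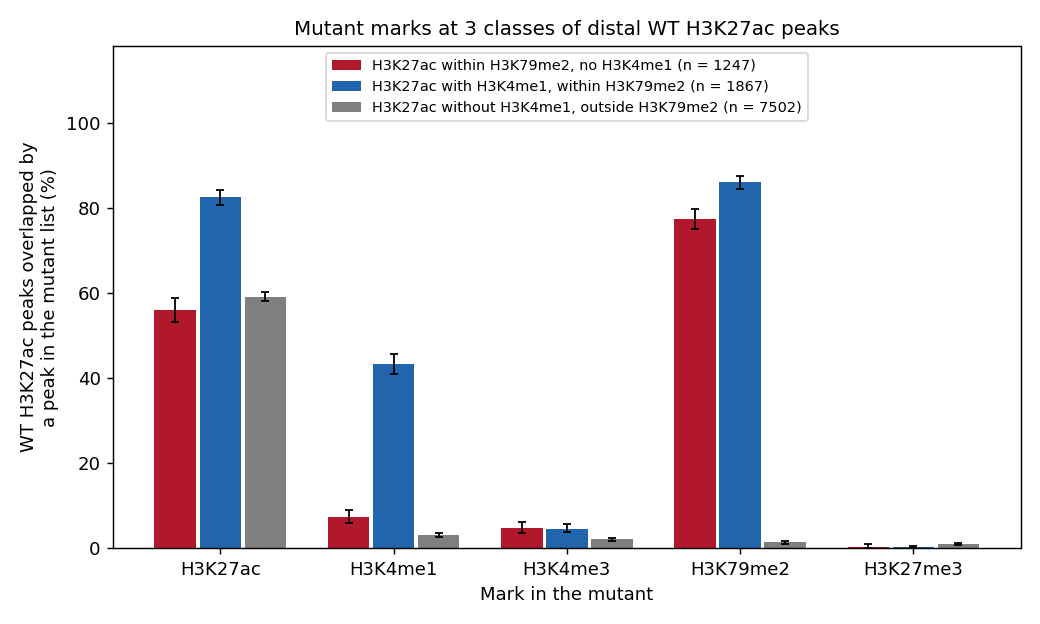
Share of WT H3K27ac peaks (percent, y axis) that a mutant peak of each mark (x axis) overlaps, for the 1247 peaks within H3K79me2 without H3K4me1 (red), the 1867 H3K4me1-marked peaks within H3K79me2 (blue) and the 7502 peaks without H3K4me1 outside H3K79me2 (grey). Bars are shares and error bars exact 95% binomial intervals; in H3K27ac the red bar, at 55.9%, is near the grey one, at 59.1%, and far under the blue one, at 82.5%.

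Strong WT peaks were overlapped in the mutant more often than weak ones, so the shares were also compared at like score, averaging the difference over 5 equal groups of the 1247 peaks by score. From the weakest to the strongest group, mutant H3K27ac overlapped 28.4%, 43.0%, 47.0%, 71.1% and 90% (225 of 250) of these regions. Over the same score ranges it overlapped 34.1%, 39.1%, 50.6%, 70.0% and 92.2% of the peaks outside H3K79me2, and 55.7%, 60.5%, 71.7%, 81.1% and 97.6% of the H3K4me1-marked peaks within H3K79me2. The first 2 classes crossed each other from group to group, while the H3K4me1-marked peaks were higher in all 5.

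At like score the difference in mutant H3K27ac, regions of interest minus H3K4me1-marked peaks within H3K79me2, was −17.4 percentage points (95% interval −20.9 to −13.9). Width was not matched, with medians of 1150 bp and 1789 bp, and what it contributes was not tested. With a mutant peak within 1000 bp also counted, this difference was −9.54 points (−12.9 to −6.21). In raw shares, not matched for score, the regions of interest were lower on all 19 autosomes taken singly. Minus peaks outside H3K79me2, the difference was −1.29 points (−3.97 to 1.39), an interval that spans 0, and in raw shares the regions of interest were lower on 12 of the 19 autosomes. That small difference depends on what is held equal. With a mutant peak within 1000 bp also counted, it turned to 4.4 points (1.78 to 7.03), and at like distance to WT H3K4me1 as well as like score it was −5.41 (−8.16 to −2.66).

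Mutant H3K4me1 was higher in the regions of interest than outside H3K79me2 in each score group. The shares were 3.20%, 6.83%, 7.23%, 8.43% and 10.8%, against 2.02%, 2.08%, 2.03%, 3.33% and 5.49% outside H3K79me2. The difference was 4.31 points at like score (2.82 to 5.80) and 3.30 points at like score and distance to WT H3K4me1 (1.76 to 4.84). It was not run with other rules of overlap, stricter thresholds or lists of equal number. In raw shares, not matched for score, the regions of interest were higher on 17 of 19 autosomes. Against H3K4me1-marked peaks within H3K79me2 the difference in mutant H3K4me1 was −29.1 points at like score (−32.0 to −26.3). Those peaks were chosen for WT H3K4me1 and the regions of interest for lacking it. The rule thus largely fixes that gap, and nothing is read from it.

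**Figure D2:**
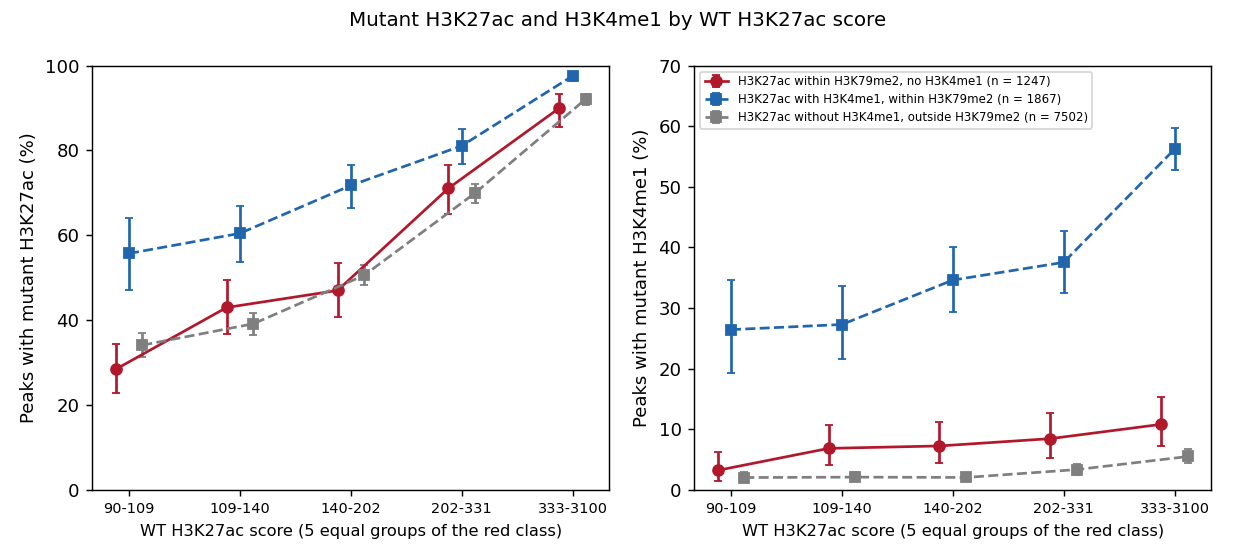
Share of WT H3K27ac peaks with mutant H3K27ac (left, percent) and mutant H3K4me1 (right, percent) over 5 ranges of WT H3K27ac score (x axis), for the 1247 peaks within H3K79me2 without H3K4me1 (red), H3K4me1-marked peaks within H3K79me2 (blue) and peaks without H3K4me1 outside H3K79me2 (grey); error bars are exact 95% intervals. On the left the red and grey lines cross and the blue line stays above them, from 55.7% to 97.6%. On the right the red line stays between the grey and blue ones, from 3.20% to 10.8%, where the blue class was chosen for WT H3K4me1.

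The regions fell mainly into 4 combinations of mutant marks. H3K27ac with H3K79me2 and nothing else was found at 456 regions (36.6%), and H3K79me2 alone at 372 (29.8%). H3K27ac alone was found at 140 (11.2%), and 133 (10.7%) had no mutant peak of any of the 5 marks. The remaining regions carried H3K4 methylation or Polycomb in some combination: 55 had H3K27ac, H3K4me1 and H3K79me2, 32 had H3K27ac, H3K4me3 and H3K79me2, and 25 had H3K4me1 and H3K79me2 without H3K27ac.

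**Figure D3:**
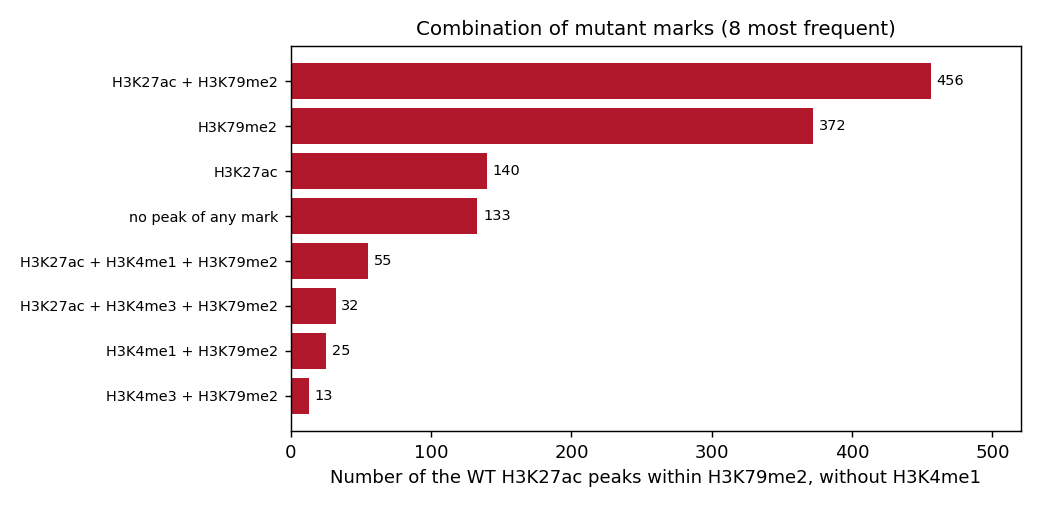
Number of the 1247 WT H3K27ac peaks within H3K79me2 and without H3K4me1 (x axis) that carry each combination of mutant marks (y axis), for the 8 most frequent combinations. The longest bar, 456, is H3K27ac with H3K79me2, and the next, 372, is H3K79me2 alone.

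Acetylation and H3K79me2 in the mutant were only loosely tied within the class. Mutant H3K27ac overlapped 550 of the 964 regions with mutant H3K79me2, 57.1% (53.9 to 60.2), and 147 of the 283 without it, 51.9% (46.0 to 57.9). At like score the difference was 2.55 points (−3.30 to 8.41), which spans 0. Mutant H3K27ac overlapped 62 of the 91 regions with mutant H3K4me1, 68.1% (57.5 to 77.5), and 635 of the 1156 without it, 54.9% (52.0 to 57.8). The regions with mutant H3K4me1 also had the higher WT scores, with a median of 205 against 166, and what that contributes was not tested. Of the 91, 89 carried mutant H3K79me2.

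Strength and width in WT cells went with acetylation in the mutant. Regions with mutant H3K27ac had a median WT score of 228 and a median width of 1388 bp, and those without it a score of 130 and a width of 954 bp. With the class divided into 10 groups by score, mutant H3K27ac was at 26.4% in the weakest and 95.2% in the strongest group. With 10 groups by width it was at 20% (25 of 125) in the narrowest and 94.4% in the widest. Overlap of 1 bp favours wide regions, and neither score nor width was held equal while the other varied. Mutant H3K79me2 moved far less over the 10 score groups, between 68.5% and 88.1%. Of the 550 regions without mutant H3K27ac, 183 (33.3%) had a mutant H3K27ac peak within 1000 bp that did not reach them, and the median distance to the nearest one was 1912 bp, with quartiles of 643 and 6071 bp.

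Where mutant H3K27ac was present it usually covered the region rather than grazing it. It lay over at least 50% of the length of 624 of the 697 regions (89.5%), in 721 mutant peaks whose median width was 1802 bp, where the 697 WT regions had one of 1388 bp. The whole H3K27ac lists had median widths of 1838 bp in the mutant and 1611 bp in WT cells. No broadening at these regions is read from these widths. For 75 of the 697 (10.8%), every overlapping mutant H3K27ac peak also overlapped mutant H3K4me3. Summed over all 1247 regions, which span 1.85 Mb, mutant H3K27ac covered 1.02 Mb (55.2%), mutant H3K79me2 1.03 Mb (55.8%) and mutant H3K4me1 0.0719 Mb (3.89%). WT H3K79me2 covered 1.20 Mb (65.0%).

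The width of the WT H3K79me2 block separated the regions by their H3K79me2 in the mutant. Regions in blocks under 2000 bp carried mutant H3K79me2 in 49.8% of cases (44.0 to 55.6), those in blocks of 2000 to 5000 bp in 71.9%, those of 5000 to 15000 bp in 87.9%, and those of 15000 bp or more in 96.3% (93.5 to 98.0). Mutant H3K27ac went the other way by a smaller margin, at 62.5%, 56.8%, 52.9% and 52.2%. These shares were not matched for WT H3K27ac score, and what score contributes to that trend was not tested. Mutant H3K4me1 was 4.32% in the narrowest blocks and 10.6% (7.47 to 14.5) in the widest.

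The share of a region's length under WT H3K79me2 gave a like picture. Regions wholly inside a block had mutant H3K27ac in 47.3% (43.2 to 51.5) and mutant H3K79me2 in 94.7%, and those with less than 50% inside in 66.8% (61.7 to 71.6) and 53.8%. The H3K27ac difference, −19.4 points, was −4.71 points at like score (−11.3 to 1.85), an interval that spans 0. As a whole, the blocks that held regions of the class overlapped mutant H3K79me2 in 82.6% of cases (80.2 to 84.8), against 63.3% of all autosomal blocks (62.7 to 63.9), which were narrower.

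Mutant marks also varied with the distance to WT H3K4me1, though not in steady steps. Of the 258 regions within 1000 bp of a WT H3K4me1 peak, 13.6% (9.63 to 18.4) had mutant H3K4me1, against 6.61% (4.69 to 8.99) of the peaks outside H3K79me2 at that distance. At 1000 to 5000 bp the shares were 7.16% against 4.70%, at 5000 to 20000 bp 3.93% against 3.42%, and at 20000 bp or more 5.28% (2.92 to 8.71) against 1.69% (1.29 to 2.17). Mutant H3K27ac overlapped 61.6%, 56.1%, 58.0% and 47.5% of the regions of interest over the same 4 distances, against 70.0%, 66.4%, 62.3% and 52.8% of the peaks outside H3K79me2. The share was lower in the regions of interest at each distance, and the mean difference at like distance was −7.37 points (−10.4 to −4.33).

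**Figure D4:**
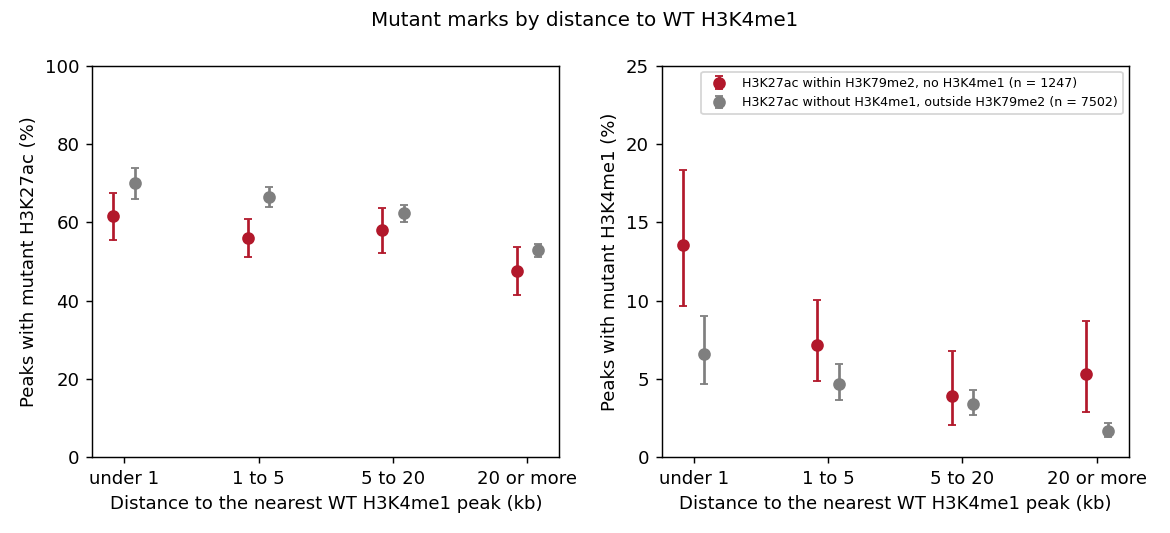
Share of WT H3K27ac peaks with mutant H3K27ac (left, percent) and mutant H3K4me1 (right, percent) by distance to the nearest WT H3K4me1 peak (x axis, kb), for the 1247 peaks within H3K79me2 without H3K4me1 (red) and the 7502 without H3K4me1 outside H3K79me2 (grey); error bars are exact 95% intervals. The red points lie under the grey ones on the left at all 4 distances, and above them on the right, with intervals apart within 1 kb, at 13.6% against 6.61%, and at 20 kb or more, at 5.28% against 1.69%.

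Few of the mutant H3K4me1 peaks lay over the class. Of all 5358 mutant H3K4me1 peaks, 92 (1.72%) touched the class, with a median score of 125, against 135 for the whole list. Of the 92, 13 (14.1%, 7.74 to 23.0) also reached a WT H3K4me1 peak, against 72.1% of all mutant H3K4me1 peaks. The rule largely fixes that contrast, since a mutant peak over these regions must extend beyond them to meet WT H3K4me1, and nothing is read from it. Mutant H3K4me1 covered a median of 744 bp of the 91 regions, and 35 of the 91 (38.5%) lay within 1000 bp of WT H3K4me1.

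Mutant H3K4me3 was most frequent beside WT H3K4me3. Of the 138 regions within 1000 bp of a WT H3K4me3 peak, 35 (25.4%, 18.3 to 33.5) had mutant H3K4me3, against 10.4% (6.91 to 14.9) of peaks outside H3K79me2 at that distance. At 1000 to 5000 bp the share was 1.73%, at 5000 to 20000 bp 2.40%, and at 20000 bp or more 2.23%. Thus 35 of the 59 regions that had H3K4me3 in the mutant bordered on H3K4me3 in WT cells.

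The strongest regions with mutant H3K27ac and no mutant H3K4me1 were broad. The region at chr19:41413502-41422426 had the top WT score, 3100, at which the score is capped for many peaks. It was 8925 bp wide, and mutant H3K27ac covered 8483 bp of it, mutant H3K79me2 1783 bp and mutant H3K4me3 664 bp. The region at chr10:67700815-67706262 scored 3055 in WT cells, and mutant H3K27ac covered 5428 of its 5448 bp. At chr6:21903540-21910336 (score 3045) mutant H3K27ac covered 5444 of 6797 bp, and at chr7:104356633-104362006 (score 2712) 5364 of 5374 bp. The widest region, chr19:21530331-21542742 (score 2505), lay only 69 bp from a WT H3K4me3 peak, and over its 12412 bp the mutant had 9484 bp of H3K27ac, 805 bp of H3K4me3 and H3K79me2 throughout. In the first 4 of these, WT H3K79me2 covered 908 to 1867 bp, so the acetylation extended well beyond the H3K79me2 that put them in the class.

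The regions with mutant H3K4me1 and the highest WT scores all kept called H3K27ac. So did 95.2% of all regions in the strongest of 10 score groups, to which these belong. The region at chr14:66847610-66855349 (WT score 2339) had 724 bp of mutant H3K4me1 and 6608 bp of mutant H3K27ac in 7740 bp. The one at chr4:46654012-46659564 (1806) had 1589 bp of mutant H3K4me1. At chr8:74690939-74695379 (1653) mutant H3K4me1 covered 1371 bp, at chr19:40754772-40758851 (1131) 1263 bp, and at chr2:11433986-11437207 (1126) 1462 bp, beside 1128 bp of mutant H3K4me3. The mutant H3K4me1 peaks at these 5 regions scored between 108 and 160, in a list whose median was 135. In the order named, the 5 regions lay 3280, 965, 3845, 178 and 8294 bp from the nearest WT H3K4me1 peak.

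The strongest regions with no mutant H3K27ac within 1000 bp show that the H3K79me2 could be called without the acetylation. At chr4:41299272-41301913 (WT score 738) and chr2:132094309-132096950 (721), each 2642 bp wide, H3K79me2 covered every base in the mutant and in WT cells, in WT blocks of 21235 and 11766 bp. The nearest mutant H3K27ac peaks were 1894 and 3342 bp away. At chr5:64595788-64598455 (616) and chr14:65035680-65038434 (576) mutant H3K79me2 covered 561 and 810 bp. The region at chr16:52417163-52420212 (594) had no mutant peak of any mark, and the nearest mutant H3K27ac and H3K79me2 peaks were 30529 and 28395 bp away.

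The next strongest regions without any mutant mark were chr1:191736615-191739159 (WT score 507), chr4:140179115-140181848 (441) and chr13:83747535-83749349 (397). WT H3K79me2 covered 531, 558 and 1207 bp of them. The nearest mutant H3K79me2 peak was 436, 77187 and 7584 bp away, so mutant H3K79me2 came close to the first of them, while the nearest mutant H3K27ac peak was 93348, 2918 and 22854 bp away. The WT blocks of these 3 had fold enrichments of 4.12, 4.00 and 3.82, and that of the chr16 region 4.66, where the class median was 4.53.

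Mutant H3K4me3 had the highest WT scores, after the chr19 regions named above, at chr11:107288028-107293641 (1844) and chr13:52684069-52688502 (1369). It covered 2373 bp of the first and 2068 bp of the second, and the nearest WT H3K4me3 peaks were 8943 and 1037 bp away. Of the 5 regions with mutant H3K27me3, the strongest was chr9:32321072-32330159 (WT score 638), where the mutant also had 8504 bp of H3K27ac, 6961 bp of H3K79me2 and 3054 bp of H3K4me1 beside 1863 bp of H3K27me3. The other regions named by the same rule, chr14:47586177-47587527 (227) and chr8:35877758-35879321 (225), had 750 and 494 bp of mutant H3K27me3 with mutant H3K27ac over 1002 and 1095 bp. Mutant H3K27ac was thus called at these 3 of the 5 regions with mutant H3K27me3 and not at the others, where the share over the whole class was 55.9%.

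The block with the most regions of the class was chr8:114060681-114134431, 73751 bp of WT H3K79me2 with a deposited fold of 5.59. Mutant H3K79me2 covered 72879 bp of it. Its 7 regions had WT scores of 90.8 to 446, and 4 had mutant H3K27ac. The strongest, chr8:114091080-114092628 (score 446), had it over 1040 of 1549 bp, and the weakest, chr8:114079020-114079762 (90.8), over all 743 bp. Of the 3 without it, chr8:114093710-114094718 (score 103) had mutant H3K4me1 instead. Across the whole block H3K27ac covered 21169 bp in the mutant and 26030 bp in WT cells, and H3K4me1 5391 bp in the mutant and 8606 bp in WT cells. Regions in the same block thus differed in the mutant, and the order of their scores did not fix which of them were acetylated.

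**Figure D5:**
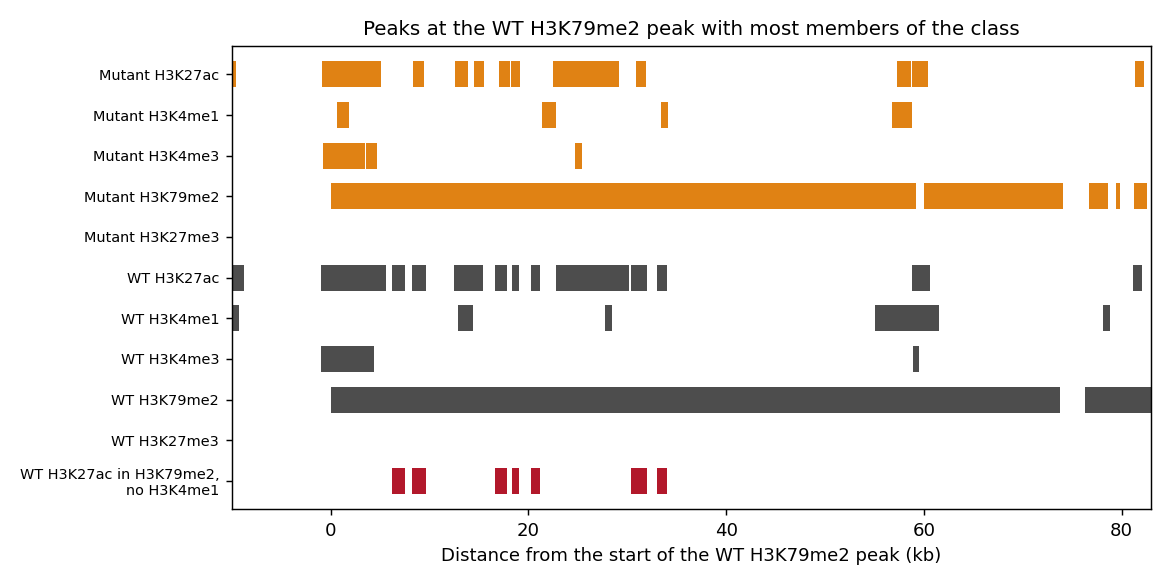
Peaks of the 5 marks in the mutant (orange, upper rows) and in WT cells (grey, lower rows) along the 73751 bp WT H3K79me2 peak that holds most regions of the class. Those regions are drawn in red in the bottom row. The x axis is distance in kb from the start of the WT H3K79me2 peak, from 10 kb before it to 82.9 kb after it. H3K79me2 runs along nearly the whole block in both genotypes, while 4 of the 7 red regions have a mutant H3K27ac peak above them.

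The next blocks, each with 5 regions, were chr9:45856046-45920993 (64948 bp) and chr2:128182117-128221553 (39437 bp), and 3 of the 5 regions had mutant H3K27ac in each. In the chr9 block, regions with scores of 456, 478 and 273 had mutant H3K27ac and those with 182 and 161 did not. In the chr2 block, those with scores of 476, 286 and 159 had it and those with 168 and 134 did not. Mutant H3K79me2 reached all 10 regions. H3K4me1 elsewhere in these blocks covered 4805 bp in the mutant against 11489 bp in WT cells on chr9, and 955 bp in the mutant against 11280 bp in WT cells on chr2. H3K27ac covered 20727 bp in the mutant and 20851 bp in WT cells on chr9, and 26672 bp in the mutant and 22305 bp in WT cells on chr2.

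Over all blocks with 2 or more regions, each region counted in its longest block, 149 blocks held 367 regions, of which 194 had mutant H3K27ac. All regions of a block had it in 42 blocks, none in 36, and some but not all in 71. Regions of one block share a source and are not independent, which the binomial intervals above do not allow for.

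The same rule applied to the mutant lists gave a larger class, 1669 mutant H3K27ac peaks within mutant H3K79me2 and without mutant H3K4me1 or H3K4me3. WT H3K4me1 overlapped 49.3% of these (46.9 to 51.7), whereas mutant H3K4me1 overlapped 7.30% of the 1247 WT regions. A WT H3K4me1-marked peak within H3K79me2 lay under 34.8% of the mutant class (32.5 to 37.2), and a region of the WT class under 24.9% (22.9 to 27.1). WT H3K27ac overlapped 70.0% of the mutant class and WT H3K79me2 91.6%. With each mark's longer list shortened to its strongest peaks until both genotypes had as many, WT H3K4me1 overlapped 24.9% of 1669 mutant-defined peaks (22.9 to 27.1), and mutant H3K4me1 14.8% of 1473 WT-defined peaks (13.0 to 16.7). With a score of at least 200 and −log10 q of at least 5 in every list, the shares were 45.8% of 1025 mutant-defined peaks (42.7 to 48.9) and 4.05% of 741 WT-defined peaks (2.75 to 5.73). The asymmetry in H3K4me1 was thus smaller with lists of equal number and not with the stricter threshold. For the mutant-defined class the equal lists changed only the WT H3K4me1 list, since the mutant lists of the rule's 4 marks were already the shorter ones. The class stayed at 1669 peaks, and the fall from 49.3% to 24.9% came with the shortening of that list. For the WT-defined class the WT lists of all 4 marks were shortened together. The part of the H3K4me1 list was there not tested on its own.

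Of the 1247 regions, 457 (36.6%, 34.0 to 39.4) met the rule's own marks in the mutant, with H3K27ac and H3K79me2 and without H3K4me1 or H3K4me3. Mutant H3K79me2 without H3K27ac was found at 414 (33.2%), H3K27ac without H3K79me2 at 147 (11.8%), and neither at 136 (10.9%). Peaks outside H3K79me2 but within 1000 bp of it, 402 in number, had mutant H3K27ac in 60.0% (55.0 to 64.8), mutant H3K4me1 in 4.48% and mutant H3K79me2 in 13.2%, against 55.9%, 7.30% and 77.3% in the class.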

How the data were processed

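ChIP-seq peaks of 5 marks in 2 genotypes were used as deposited, in 10 lists, each from 1 library; the 2 inputs were not used. Of the 12 samples, groups came from the titles. The series text names 6 modifications, of which 5 were analysed here. The submitters' processing notes list Bowtie, MACS, MACS2 and deepTools and the build mm9, with no version and no role for any tool. The H3K4me1, H3K27ac and H3K4me3 lists give, per the file headers and values, the authors' score, which reads as 10 times −log10 p, with a lowest p of 1e-09. The H3K79me2 and H3K27me3 lists give the deposited score, fold (a ratio over background), −log10 p and −log10 q of MACS2 broad peaks, with a lowest p of 1e-05. Peaks were called in single libraries of unknown depth. Scores and folds are the authors' own and were used only within a list.

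Overlaps of at least 1 bp were computed in Python 3.11.15 with numpy 2.4.6, pandas 2.3.3 and scipy 1.17.1, and were checked on simulated intervals. Like-score differences average the 5 score groups, with 95% intervals from the binomial variances. Regions were named by rank of WT score within each mutant state, and blocks by number of regions. The class, these rules and the comparisons were chosen with earlier results of these data known.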

Additional observations from a re-analysis of the deposited data

How the results depend on the processing

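No paired analysis was possible because each genotype and mark has 1 library. Under the alternatives, 24 shares and differences stayed within the interval of the reported value and 23 moved out of it, and the number of regions stayed within 1.5 times of the reported one in 7, of which the 2 on mutant overlap cannot change it, and moved further in 1. With a score of at least 200 and −log10 q of at least 5, the class held 741 regions, with mutant H3K27ac at 64.4% and H3K4me1 at 4.05%, and the difference from H3K4me1-marked peaks within H3K79me2 was −13.0 points. With mutant cover of at least 50% of a region required, H3K27ac was at 50.04%, H3K4me1 at 4.09% and H3K79me2 at 59.7%. With mutant peaks within 1000 bp counted, they were at 70.6%, 14.0% and 86.8%, and the differences were 4.4 points from peaks outside H3K79me2 and −9.54 from H3K4me1-marked peaks. Without regions within 1000 bp of WT H3K4me1 or H3K4me3, mutant H3K4me1 was at 5.44%. With WT H3K79me2 over at least 50%, H3K27ac was at 51.4% and H3K79me2 at 87.0%. In lists of equal number the WT lists of the rule were cut, and the class, drawn anew, held 1473 regions. Some of these can overlap WT H3K4me1 peaks of the full list. H3K27ac was at 70.7%, H3K4me1 at 14.8% and H3K79me2 at 82.4% of them. The differences were 1.77 points from peaks outside H3K79me2 and −11.7 from H3K4me1-marked peaks. Chosen after seeing the data were mutant H3K27ac peaks free of mutant H3K4me3 (49.9%, and −4.11 points from peaks outside H3K79me2), like distance to WT H3K4me1 (−7.37 points) and like score and distance (−5.41 points). The difference from peaks outside H3K79me2 thus took either sign, while that from H3K4me1-marked peaks stayed negative in every alternative run. No alternative matched the classes for width. The causes were not tested. Depth is unknown, so weak marks below the authors' thresholds cannot be seen, and without replicates no spread between samples is known.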
